A study of Mus musculus with 20 samples.

Results

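Of the 54532 genes in the deposited table, 8 long noncoding RNAs were examined, all picked by gene name as well-known members of their class or because the study names them in its single-cell work. They were Malat1, Neat1, Snhg11, Gas5, Snhg1, Snhg12, H19 and Meg3. Malat1 and Neat1 are nuclear RNAs transcribed from neighboring genes. Malat1 gathers in nuclear speckles, where splicing factors are stored, and the long form of Neat1 is the scaffold of paraspeckles, which hold RNA-binding proteins such as Nono and Sfpq. Gas5, Snhg1, Snhg12 and Snhg11 are hosts of small nucleolar RNAs (snoRNAs), which are cut out of their introns and guide the modification of ribosomal RNA. The spliced RNAs of such hosts are often short-lived because translation exposes them to nonsense-mediated decay. H19 and Meg3 are imprinted genes read mainly from the maternal copy, and both are abundant in the embryo and low in most adult tissues.

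The Cre-less AAV model supplied 10 tumors and 10 normal kidneys. The mice were LSL-Cas9/+; Pax8 Cre/+, and an AAV without Cre injected into the kidney brought guide RNAs that target Keap1, Vhl, Tsc1 and Pbrm1. Normal kidney was therefore tissue of the same genotype from the same mice, with Cas9 switched on wherever Pax8 drives Cre, which in the kidney means tubule epithelium and not stroma or vessels. The AAV was injected into young adult mice of both sexes, and no age at collection is given for the groups. Bulk tissue was pulverized, and polyadenylated RNA was enriched before sequencing.

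Between 14737516 and 26679704 reads per library were counted on genes. Transcripts of the edited genes remained measurable: edgeR gave log2 fold changes of -0.49 for Vhl, -0.61 for Tsc1, -0.28 for Pbrm1 (adjusted p = 0.23) and 0.83 for Keap1. Why they remained was not tested. The tissue labels were checked with markers. The summed level of 10 markers of the loop of Henle, distal tubule and collecting duct lay between 2.57 and 17.8 CPM (counts scaled to library size) in tumors and between 4151 and 10480 CPM in normal kidneys, and none of the 10 was at 0 throughout either group. Some libraries stood apart. In tumor 7 the summed level of 10 fibroblast markers was 8320 CPM against 153 to 686 CPM in the other tumors, and that of 10 macrophage markers was 2518 CPM against 368 to 1073 CPM. In normal kidney 9, counts fell off with gene length relative to its group (slope -0.48 log2 units per log2 of length, against -0.05 to 0.09 in the other 19 libraries). Fold changes of the 8 genes that rest on either are also given without it. Values of single genes on the lists are given with all 20 libraries.

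Because libraries were enriched for poly(A) RNA, the 3′ ends of Malat1 and Neat1 are shown first. RNase P cuts long Neat1 and most Malat1 at their mature 3′ ends, which then have no poly(A) tail and are protected by a triple helix of U-rich and A-rich tracts. In GENCODE vM21 (GRCm38), the last 400 bases of the longest transcripts of the 2 genes shared 3 stretches of at least 10 bases, in the same order: TTTCTTTTCCTGA, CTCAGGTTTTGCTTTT and AAAAAGCAAAA. Among 141767 transcripts, no others held all 3 in this order on the transcript strand with at most 120 bases between them. The stretches were taken from these same 2 transcripts, so the search could not test whether the feature is particular to them. Capitals mark these stretches in the first pair of sequences and the poly(A) signal AATAAA in the second pair. The Malat1 sequence is chr19:5795982-5796075 (minus strand, bases 6598 to 6691 of 6983), and the annotated transcript runs on to the end shown at chr19:5795690-5795739. The end of long Neat1 is chr19:5824708-5824807 (bases 20672 to 20771), and that of the short transcript, of 3004 bases, is chr19:5842307-5842356.
Malat1, shared stretches: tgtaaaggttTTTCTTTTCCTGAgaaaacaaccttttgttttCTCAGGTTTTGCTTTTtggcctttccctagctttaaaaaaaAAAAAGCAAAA
Neat1, end of the long transcript: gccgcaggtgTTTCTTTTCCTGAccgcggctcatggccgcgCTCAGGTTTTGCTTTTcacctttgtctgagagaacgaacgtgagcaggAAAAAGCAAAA
Malat1, annotated end: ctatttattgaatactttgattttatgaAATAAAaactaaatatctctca
Neat1, end of the short transcript: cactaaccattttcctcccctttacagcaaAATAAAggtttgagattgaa

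The counts are per gene, so the long and short forms of Neat1 were not separated. The level of either gene here is what poly(A) capture recovered.

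The 5′ ends of 3 snoRNA hosts are shown because Gas5 is known as a transcript with a 5′ terminal oligopyrimidine tract, the feature of messages whose translation mTORC1 controls, and Tsc1 restrains mTORC1. RefSeq (GRCm38.p6) gave 8 windows for 6 of the 8 genes, without Neat1 and H19, each of 300 bases with the annotated start after base 250. Capitals mark the longest run of C and T within 10 bases of that start. It was 6 bases in Gas5 at the start used here (chr1:161035131-161035215), 7 in Snhg1 (chr19:8723452-8723536) and 9 in Snhg12 (chr4:132308643-132308727), all on the plus strand. The runs of Gas5 and Snhg12 began at offsets of -1 and -3 bases from the annotated start and ran across it. That of Snhg1 began at an offset of 4 bases, downstream of the start, and so was not terminal there. A run of at least 6 was found in 21% of 32851 windows, and the other annotated Gas5 start had a run of 3. The fourth host, Snhg11, also had a run of 3, Malat1 one of 4, and the starts of Meg3 runs of 5 and 2.
Gas5: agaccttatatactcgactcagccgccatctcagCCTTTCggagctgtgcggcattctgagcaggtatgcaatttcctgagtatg
Snhg1: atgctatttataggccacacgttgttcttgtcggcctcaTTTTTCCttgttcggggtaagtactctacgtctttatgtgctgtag
Snhg12: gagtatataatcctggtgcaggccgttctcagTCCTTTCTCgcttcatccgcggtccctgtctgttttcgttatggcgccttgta

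The core of the hypoxia response element (ACGTG or GCGTG, on either strand) was present in 4 of the 8 windows, against 43.8% of all windows. Those 4 belonged to Gas5, Snhg1, Snhg11 and Malat1.

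The name abundant held for Malat1 and less so for the rest. By mean CPM, Malat1 ranked 103 of 54532 genes in tumors and 137 in normal kidneys. Neat1 ranked 1845 in tumors and 512 in normal kidneys. Snhg11 and Gas5 ranked between 3796 and 5945, Snhg1 and Snhg12 between 10052 and 10369, and Meg3 and H19 between 12209 and 19365. The 8 genes together took up 0.103% ± 0.024 (SD, n = 10) of all counts in tumors and 0.104% ± 0.033 in normal kidneys. These shares did not differ beyond their spread (difference -0.00091 percentage points, two-sided permutation p = 0.944).

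Levels of different genes were compared per kilobase of exon. Malat1 stood first in both groups, with a median of 117.8 CPM per kb in tumors and 76.6 in normal kidneys. In tumors Gas5 followed at 8.47, Neat1 at 5.87, Snhg11 at 4.98, Snhg12 at 2.85 and Snhg1 at 2.18. In normal kidneys Neat1 was second at 14, ahead of Gas5 at 8.11, Snhg11 at 4.44, Snhg12 at 3.24 and Snhg1 at 2.40. H19 and Meg3 lay far lower, at medians of 0.10 and 0.042 CPM per kb in tumors and 0.046 and 0.051 in normal kidneys.
Neighbors in the order of mean log2 CPM per kb were compared within libraries by exact two-sided sign-flip tests, adjusted over the 14 neighbor pairs of both groups. Malat1 exceeded the next gene in all 10 libraries of each group (adjusted p = 0.00682), by 3.83 log2 units over Gas5 in tumors and by 2.72 over Neat1 in normal kidneys. The middle of the order was not resolved: in tumors Gas5 and Snhg11, Snhg11 and Neat1, and Neat1 and Snhg12 did not differ beyond their spread (adjusted exact p from 0.118 to 0.816). In normal kidneys neither did Neat1 and Gas5 (adjusted exact p = 0.753) or Snhg11 and Snhg12 (0.613). Snhg12 was above Snhg1 in 9 of 10 tumors (adjusted exact p = 0.041) and in 8 of 10 normal kidneys (0.073). H19 stood above Meg3 by 1.37 log2 units in tumors (adjusted exact p = 0.0352) and by 1.09 in normal kidneys (0.0228). H19 had few counts and a prior count of 2 entered these log2 values. That prior was divided by length too, so at 0 counts H19 (2.46 kb) is placed above Meg3 (18.089 kb). Normal kidney 9 had 0 counts of both and was placed in that order. The medians of CPM per kb in normal kidneys stood in the other order. The test therefore does not settle the order of H19 and Meg3 in normal kidneys.

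**Figure D1:**
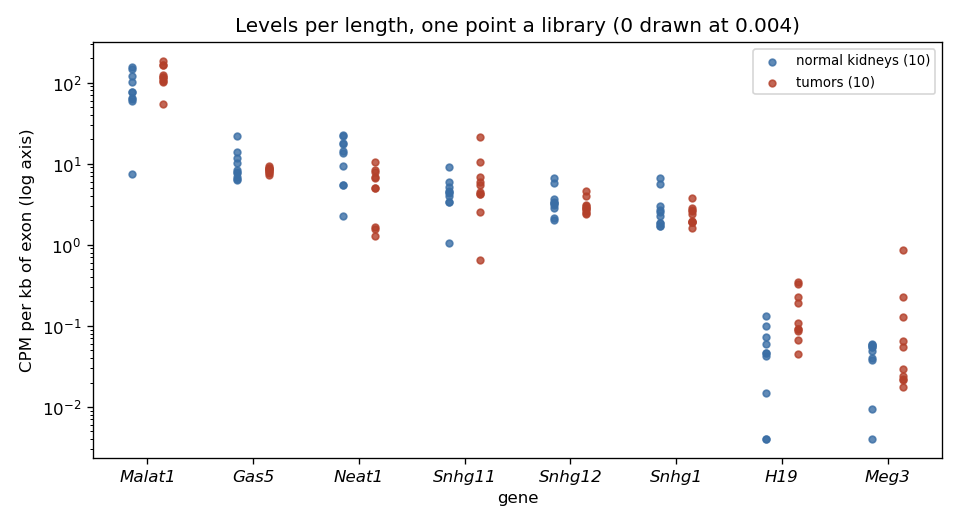
CPM per kb of exon (log axis) of the 8 long noncoding RNAs in each of 10 normal kidneys (blue) and 10 tumors (red), ordered by the tumor median, with libraries at 0 drawn at 0.004. Malat1 has the highest median in both groups, with normal kidney 9 as its lowest point, while H19 and Meg3 lie lowest.

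Tumors and normal kidneys were compared to ask which of these RNAs change when the kidney epithelium becomes tumor. Neat1 was lower in tumors. Meg3 was called higher, but its tumor median (0.77 CPM) was below the normal median (0.93 CPM), and its call was lost without tumor 7 (log2 fold change 0.65, edgeR adjusted p = 0.324), 1 of 19 among 30 alternatives that lost it. The other 5 tested genes did not pass the test. Of the 8 genes, 7 passed the filter on low counts and 2 of these 7 were called by edgeR at an adjusted p under 0.05, beside 47.5% of the 15354 genes tested. The 1 gene called higher stands beside 23.6% of all tested genes called higher, and the 1 called lower beside 23.8%. The median log2 fold change was -0.24 over the 7 genes and -0.02 over all genes tested. In bulk tissue, fewer cells of a type and less RNA per cell cannot be told apart.

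**Figure D2:**
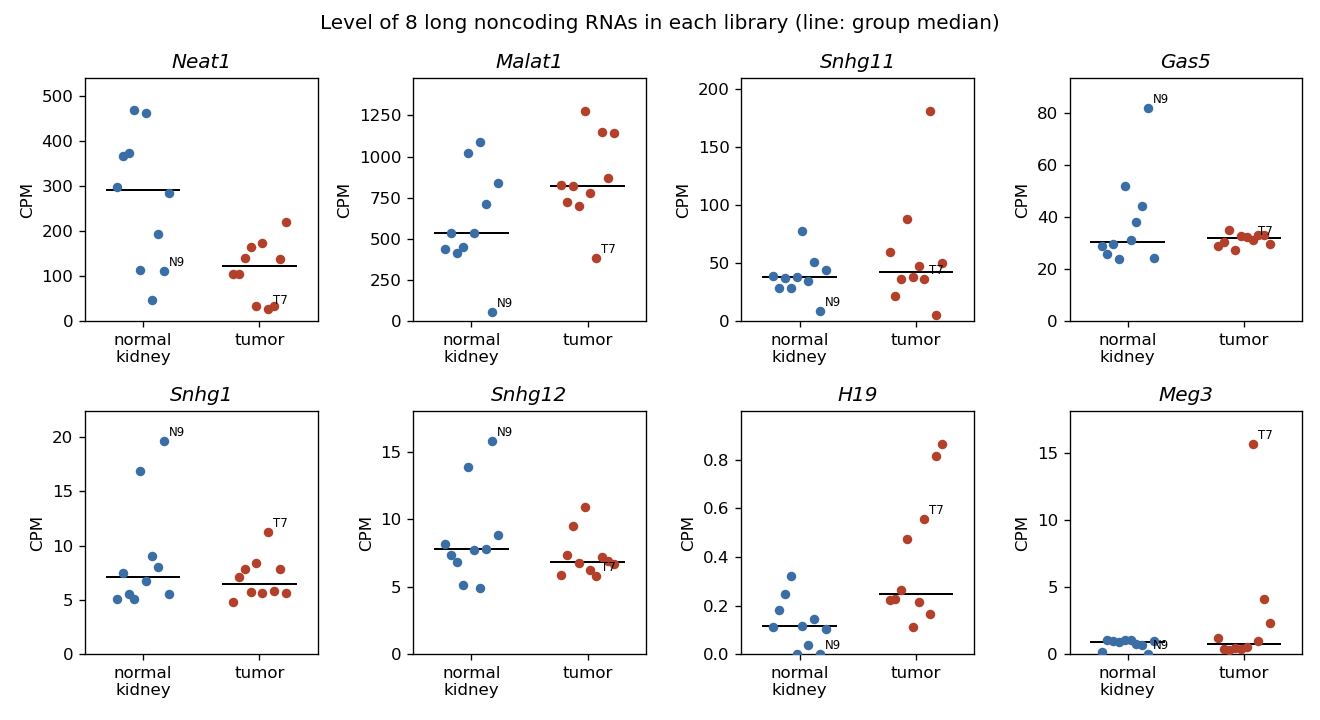
CPM of each of the 8 long noncoding RNAs in 10 normal kidneys (blue) and 10 tumors (red), with a line at the group median, and with tumor 7 (T7) and normal kidney 9 (N9) named. All 10 tumors have less Neat1 than the normal kidney median of 290.8 CPM, and the Meg3 level of 15.7 CPM in tumor 7 lies far above the rest.

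Neat1 (ENSMUSG00000092274, chr19:5824708-5845478, minus strand) was lowest at 26.6 CPM, had a median of 121.8 and reached 220.2 CPM in tumors. In normal kidneys it was lowest at 47.3, had a median of 290.8 and reached 468 CPM. All 10 tumors were below the normal median and 3 of them, tumors 5, 7 and 8, were below every normal kidney, but the groups overlapped. The log2 fold change was -1.25 ± 0.42 (SE; edgeR quasi-likelihood test, Benjamini-Hochberg adjusted p = 0.0182), a level 2.38-fold lower in tumors. A two-sided permutation test of the log2 levels gave p = 0.0189. Neat1 stayed below an adjusted p of 0.05 under all 30 alternatives, with log2 fold changes from -1.51 to -1.14.

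Neat1 varied widely within each group, with a coefficient of variation of 58.2% in tumors and 55.1% in normal kidneys. Tumors 5, 7 and 8 held 34.1, 26.6 and 32.5 CPM, while the other 7 tumors held 103.7 to 220.2 CPM. Normal kidneys 5, 7 and 9 held 113.6, 47.3 and 111.9 CPM, followed by normal kidney 8 at 193.2 CPM, and the other 6 held at least 284.2 CPM. Libraries numbered 5, 7 and 8 were thus among the low ones in both tissues. The summed level of 10 proximal tubule markers was also low in normal kidneys 5, 7 and 8 (3055, 2183 and 4125 CPM, against 9534 to 13550 CPM in the other 7), but not in normal kidney 9 (11180 CPM). In tumors 5, 7 and 8 it was 5673, 1238 and 3532 CPM, against 4142 to 9746 CPM in the others. Of the 10 markers 9 were tested, with 4 lower and 0 higher, and none was at 0 throughout a group. What part the tubule content had in the Neat1 level was not tested.

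**Figure D3:**
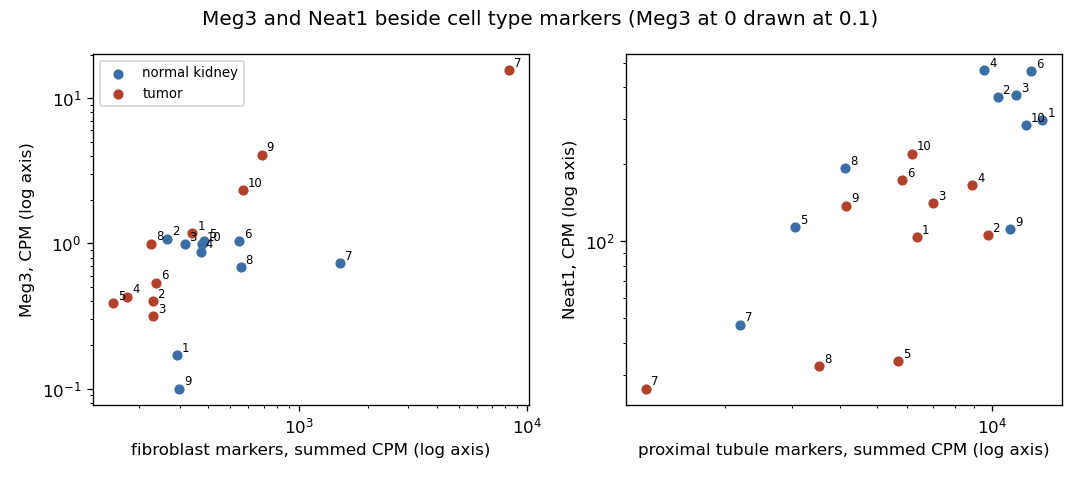
Left, Meg3 (CPM) against the summed CPM of 10 fibroblast markers. Right, Neat1 (CPM) against the summed CPM of 10 proximal tubule markers, all on log axes, for 10 normal kidneys (blue) and 10 tumors (red), each with its number. Tumor 7 holds both the highest fibroblast sum, 8320 CPM, and the highest Meg3, while normal kidneys 5, 7 and 8 and tumors 7 and 8 are low for both measures on the right.

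The protein-coding genes whose deviations from their group means were most like those of Neat1 over the 20 libraries were Zmat1 (r = 0.954), Slx4ip (r = 0.944) and Dzip3 (r = 0.944). Within tumors r was between 0.946 and 0.957 for these genes and within normal kidneys between 0.937 and 0.977. These genes were chosen for that likeness, and the libraries share their depth, tissue makeup and RNA quality. Zmat1 encodes a zinc finger protein, Slx4ip a partner of the Slx4 nuclease scaffold and Dzip3 an RNA-binding ubiquitin ligase. Zmat1 had 1.27 to 1.49 CPM in tumors 5, 7 and 8 and 3.59 to 5.47 CPM in the other tumors. Likeness within groups did not extend to the difference between them: Slx4ip was higher in tumors (log2 fold change 0.89, adjusted p = 0.0049), and Zmat1 (-0.39, adjusted p = 0.421) and Dzip3 (-0.05, adjusted p = 0.939) did not pass the test.

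**Figure D4:**
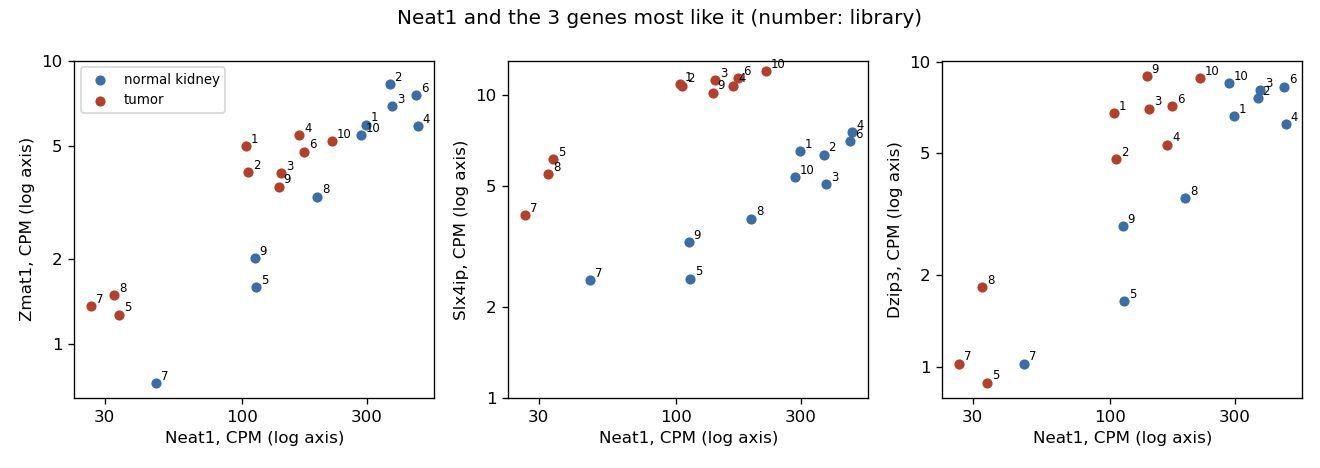
CPM of Zmat1, Slx4ip and Dzip3 against that of Neat1 (log axes) in 10 normal kidneys (blue) and 10 tumors (red), each with its number. In every panel tumors 5, 7 and 8 and normal kidneys 5, 7 and 9 form the low end of their group, and Slx4ip runs higher in tumors at a given Neat1 level.

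Malat1 (ENSMUSG00000092341, chr19:5795690-5802672, minus strand) ranged from 382 to 1280 CPM in tumors, with a median of 823, and from 52.5 to 1089 CPM in normal kidneys, with a median of 535. Its level was above the normal median in 9 of 10 tumors, all but tumor 7, and the groups overlapped. The log2 fold change of 0.51 ± 0.33 did not pass the test (adjusted p = 0.211, permutation p = 0.0587). Without normal kidney 9, which had the lowest level, it was 0.36 (adjusted p = 0.183). With each library's slope on gene length as a covariate it was 0.78 and passed (adjusted p = 0.0129). Those slopes were taken from deviations from group means, so the covariate could not remove a length bias between the groups. Normal kidney 9 and its low Malat1 level stayed in that fit. The call with the covariate therefore does not show a rise of Malat1 freed of length bias.

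The balance between the neighboring genes differed. On the log2 scale the ratio of Neat1 to Malat1 was -3.18 ± 1.17 (SD, n = 10) in tumors and -1.14 ± 1.67 in normal kidneys, and all 10 tumors were below the normal median. The difference was -2.04 log2 units (two-sided permutation p = 0.00632). It lay between -2.41 and -1.71 under 23 alternatives and passed in each of them, among them the prior count of 0.5 and the omission of any library. The ratio was lowest in tumors 5 and 8, at -5.23 and -5.14, and highest in normal kidney 9, at 1.09.
Frmd8, the nearest tested gene on the other side of Neat1 at a distance of 4224 bases, rose in tumors by 1.15 ± 0.14 log2 units (adjusted p = 5.08e-07).

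**Figure D5:**
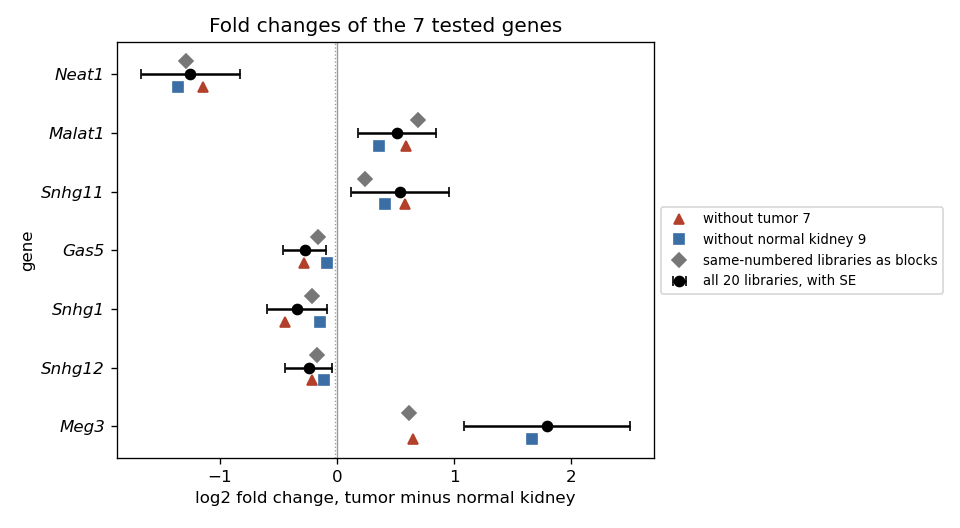
Log2 fold change (tumor minus normal kidney) of the 7 tested genes with all 20 libraries (black, bars are the SE), without tumor 7 (red triangles), without normal kidney 9 (blue squares) and with same-numbered libraries as blocks (gray diamonds). The dotted line is the median of all genes tested. Neat1 stays between -1.35 and -1.14 in these fits, while Meg3 drops from 1.79 to 0.65 without tumor 7.

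Among the snoRNA hosts, Gas5 hardly varied between tumors. Gas5 (ENSMUSG00000053332, chr1:161034422-161038539, plus strand), which also binds the glucocorticoid receptor, ranged from 27.2 to 34.9 CPM in tumors, with a median of 31.8 and a coefficient of variation of 7.56%. In normal kidneys it ranged from 24.0 to 82.0 CPM, with a median of 30.5 and a coefficient of variation of 47.3%, or 29.5% without normal kidney 9. No tumor was outside the span of the normal kidneys, whose highest levels were those of kidneys 9, 5 and 8. The log2 fold change was -0.28 ± 0.19 (adjusted p = 0.23), and without normal kidney 9 it was -0.09 (adjusted p = 0.591).

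Snhg1 (ENSMUSG00000108414, chr19:8723475-8726443, plus strand) had 4.81 to 11.2 CPM in tumors, with a median of 6.47, and 5.04 to 19.6 CPM in normal kidneys, with a median of 7.11. Snhg12 (ENSMUSG00000086290, chr4:132308623-132311024, plus strand) had 5.81 to 10.9 CPM in tumors, with a median of 6.85, and 4.89 to 15.8 CPM in normal kidneys, with a median of 7.79. For both genes normal kidneys 9 and 5 were the highest libraries and the groups overlapped. Their log2 fold changes were -0.34 ± 0.26 (adjusted p = 0.283) and -0.24 ± 0.20 (adjusted p = 0.34). Without normal kidney 9 they were -0.14 (adjusted p = 0.617) and -0.11 (adjusted p = 0.614). The log2 ratio of Gas5 to Snhg1 was 2.18 ± 0.33 in tumors and 2.14 ± 0.28 in normal kidneys (difference 0.05, two-sided permutation p = 0.744).

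Snhg11 (ENSMUSG00000044349, chr2:158375638-158386145, plus strand) was given the biotype protein coding in the deposited table, although its name is that of a noncoding host. It showed the widest spread of the hosts among tumors. In tumors it ranged from 5.59 CPM in tumor 9 to 181 CPM in tumor 8, with a median of 42.4, and in normal kidneys from 8.99 to 77.6 CPM, with a median of 37.8. Tumors lay on both sides of the normal range, with 2 above it and 1 below. The log2 fold change was 0.54 ± 0.42 (adjusted p = 0.301), and without tumor 8 it was 0.13 (adjusted p = 0.801).

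Correlations between these genes were computed for 5 pairs within each group, 10 values in all, with 10 libraries each. Gas5 and Snhg1 varied together in normal kidneys (Pearson r = 0.916, permutation p = 0.00034, adjusted 0.0034; Spearman rho = 0.818, permutation p = 0.00583, adjusted 0.0583). Without kidneys 5 and 9, the farthest from the median of Gas5, r was 0.708 (permutation p = 0.0516). In tumors, where Gas5 hardly varied, r was 0.448 (permutation p = 0.193, adjusted 0.276; rho = 0.491, permutation p = 0.155, adjusted 0.388). The difference between the groups' correlations was not tested.
The other pairs missed the adjusted threshold. In normal kidneys Gas5 and Snhg12 had r = 0.706 and Snhg1 and Snhg12 r = 0.737 (adjusted permutation p = 0.0813 for both), with rho of 0.442 and 0.358. Both rested on kidneys 5 and 9, without which r was -0.10 and -0.23. In tumors these pairs had r of 0.494 and 0.295 (adjusted permutation p = 0.276 and 0.51). Neat1 and Malat1 had r = 0.136 in tumors and -0.03 in normal kidneys (adjusted permutation p = 0.806 and 0.936). Without normal kidney 9, the latter was -0.84 (adjusted permutation p = 0.017). H19 and Meg3, with few counts, had r = 0.653 in tumors and 0.452 in normal kidneys (adjusted permutation p = 0.0908 and 0.276). Over the 8 values other than those of Gas5 and Snhg1, rho lay between -0.42 and 0.54 (permutation p from 0.113 to 0.866, adjusted 0.383 to 0.866). Without the 2 libraries farthest from the first gene's median, r in tumors was 0.474 for Gas5 and Snhg12, 0.779 for Snhg1 and Snhg12, 0.129 for Gas5 and Snhg1, -0.48 for Neat1 and Malat1 and 0.571 for H19 and Meg3. In normal kidneys it was -0.80 for Neat1 and Malat1 and 0.248 for H19 and Meg3.

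The genes most like Gas5 over the 20 libraries were Txnl1 and Txn1, of the thioredoxin family, and Ssr2, a subunit of the translocon-associated complex, with r from 0.912 to 0.944. Those values came from the normal kidneys (r from 0.951 to 0.987), since r in tumors was between 0.123 and 0.502. For Snhg1 they were Ch25h, Npm1 and Junb (r from 0.877 to 0.925), among which Npm1 encodes nucleophosmin of the nucleolus. For Snhg12 they were Rcl1, Iba57 and Oser1 (r from 0.812 to 0.824), and Rcl1 takes part in the processing of ribosomal RNA. For Malat1 they were Afdn, Zmiz1 and Map3k2 (r from 0.938 to 0.954), and for Snhg11 Ttll4, Mapk9 and mt-Nd6 (r from 0.786 to 0.831). Several of these values were lower without the libraries that stood apart. Without tumor 7, r with Malat1 in tumors went from 0.797 to 0.486 for Afdn and from 0.575 to 0.282 for Map3k2, and r with Snhg1 in tumors from 0.804 to 0.566 for Npm1 and from 0.742 to 0.487 for Junb. Without normal kidney 9, r of Mapk9 with Snhg11 in normal kidneys went from 0.814 to 0.029. For Neat1 r stayed at 0.922 or more in either group without these libraries.

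The snoRNAs carried by the hosts could not be read from these libraries. The annotation places 10 snoRNA genes inside Gas5, 8 inside Snhg1 and 5 inside Snhg12, and each had 0 counts in all 20 libraries. The 2 inside Snhg11 had 38 counts in total. Gas5 also overlaps Zbtb37 on the opposite strand, and use of strand in the counting is not given in the sources used here, so reads in the overlap could belong to either gene.

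Of 17 other noncoding snoRNA hosts 15 were matched and 12 tested, and 2 were higher and 6 lower in tumors, with a median log2 fold change of -0.43, beside 23.6% higher and 23.8% lower among all genes tested. Whether these hosts differed from Gas5, Snhg1, Snhg11 and Snhg12 was not tested. Snhg4 fell most, by 1.91 ± 0.22 log2 units (adjusted p = 3.95e-07), with all 10 tumors below every normal kidney. Snhg8 (-1.02) and Epb41l4aos (-0.93) followed, while Snhg5 (1.03) and Snhg17 (0.46) rose. Normal kidney 9 had 33.6 CPM of Snhg8 and 20.2 CPM of Epb41l4aos, at means of 11.2 and 8.55 CPM in normal kidneys. Snhg17 lies 14058 bases from Snhg11.

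Proteins that work with these RNAs were counted by list. With all 20 libraries, the share called in each list was below the 47.5% called among all genes tested. Among 16 core proteins and assembly factors of snoRNA particles, 1 was higher and 3 lower (median log2 fold change -0.00). Nufip1, an assembly factor, rose by 1.06 log2 units, and Snu13, Dkc1 and Naf1 fell by 0.44, 0.41 and 0.30. Snu13 had 134 CPM in normal kidney 9, at a mean of 55.4 CPM in normal kidneys. Of 23 paraspeckle proteins 3 were higher and 5 lower (median -0.17), led by Smarca4 (0.82) and Ubap2l (0.29) on the upper side and by Hnrnph3 (-0.88), Hnrnpr (-0.63) and Rbmx (-0.52) on the lower. Nono, Sfpq and Pspc1, which were looked up for their role as the core of the paraspeckle, had adjusted p of 0.996, 0.201 and 0.165. Of 26 nuclear speckle proteins, 1 was higher, Rnps1 (0.52), and 7 were lower (median -0.22), among them the splicing factor kinases Clk4 (-0.56), Clk2 (-0.48) and Clk1 (-0.45). Without tumor 7 and normal kidney 9, 15 of the speckle proteins were lower and 1 higher, and 12 of the paraspeckle proteins were lower and 3 higher. In that fit 8668 of all 15353 genes tested were called, 46.86% of them higher. The share called in both lists then lay above that of all genes.
Of 17 factors of nonsense-mediated decay, which removes spliced host RNAs, 2 were higher, Dhx34 (0.53) and Smg8 (0.31), and 3 lower, Smg5 (-0.44), Upf3b (-0.37) and Eif4a3 (-0.24). Of 15 genes of the processing and stability of the Malat1 3′ end, Pop5 (-0.95) and Rpp14 (-0.41), subunits of RNase P, were lower and Ago2 (0.55) was higher. Pop5 had 147.7 CPM in normal kidney 9, at a mean of 47.6 CPM in normal kidneys.

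Meg3 (ENSMUSG00000021268, chr12:109541001-109571726, plus strand) was low and its difference rested on few libraries. In tumors it ranged from 0.32 to 15.7 CPM, with a median of 0.77, and in normal kidneys from 0 to just over 1 CPM, with a median of 0.93. Tumor 7 alone gave 367 of the 600 Meg3 counts in tumors, tumors 9 and 10 had 4.08 and 2.34 CPM, and 5 of 10 tumors lay below the normal median. The log2 fold change was 1.79 ± 0.71 (adjusted p = 0.0422). The permutation p of the log2 levels was 0.248. Without tumor 7 the log2 fold change was 0.65 (adjusted p = 0.324), and 18 other alternatives also lost the call. Normal kidney 9 had 0 counts, which allows a level of up to 0.189 CPM. Fibroblast markers moved with Meg3: tumors 7, 9 and 10 had the highest sums among tumors, at 8320, 686 and 566.5 CPM, although normal kidney 7 had 1519 CPM and 0.73 CPM of Meg3 (range of the sum in normal kidneys 265.6 to 1519 CPM). All 10 fibroblast markers were tested, with 1 higher and 1 lower. This was not particular to fibroblast markers. Among tumors, macrophage sums were also highest in tumors 7 and 9 (2518 and 1073 CPM). So were endothelial sums (1206 and 1407 CPM) and those of skeletal muscle and fat (449.6 and 177.8 CPM). Sums of the other marker lists did not peak in both tumors. What part any of these cell types had in the Meg3 level was not tested. The genes most like Meg3 were Dnm1, Celf2 and Thbs2 (r from 0.918 to 0.931). Thbs2 encodes thrombospondin 2 of the matrix. In normal kidneys without kidney 9, r was 0.805 for Dnm1, 0.456 for Celf2 and 0.512 for Thbs2.

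Genes around Meg3 and H19 in their imprinted regions were too low to test, with 0 of 9 passing the filter. The same tumor stood out in the Meg3 region. Rian, a noncoding RNA of that region, had 311 counts in tumor 7 and 2 to 50 in the other tumors, and 3 to 31 in normal kidneys. Dio3, a thyroid hormone deiodinase at its far end, had 379 counts in tumor 7, at most 13 in other tumors and 2 to 44 in normal kidneys. Dlk1, read from the paternal copy, had 7 counts in tumor 7 and at most 16 in any library. Igf2, the growth factor gene beside H19, had 11 counts over all 10 tumors and 885 over the normal kidneys, with at most 259 in a library. The 2 microRNA genes inside Meg3 and the 1 inside H19 had 0 counts.

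H19 (ENSMUSG00000000031, chr7:142575529-142578143, minus strand), the host of miR-675, did not pass the filter. Its counts lay between 2 and 20 in tumors, with a median of 4.5 and a sum of 86, and between 0 and 7 in normal kidneys, with a median of 2 and a sum of 25. The 4 highest libraries were tumors 10, 9, 7 and 4, each above every normal kidney, and 9 of 10 tumors were above the normal median. The permutation p was 0.0041 without adjustment, and edgeR without the filter, on 32383 genes, gave an adjusted p of 0.0256. A fold is not given because the normal kidneys lay at about the level of 3 counts.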

How the data were processed

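Total RNA of 10 tumors and 10 normal kidneys was poly(A)-enriched and sequenced by a company, and the authors deposited raw gene counts without normalization. The submitters' processing notes name the build mm10. The aligner, counter and use of strand are not given in the sources used here. Groups came from the sample labels. The study took the 10 tumors and 10 normal kidneys from 10 mice but does not say that each mouse gave 1 of either, so p-values measure the spread between libraries.

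Counts were scaled with TMM factors in edgeR 4.0.16 (R 4.3.3), filtered at a count minimum of 10, and compared by the quasi-likelihood test without covariates, with Benjamini-Hochberg adjustment. Values of libraries are CPM, or log2 CPM with a prior count of 2. Permutation tests used 100000 resamples (scipy 1.17.1), or all arrangements where called exact. Fits with other scalings, DESeq2 1.42.0, limma 3.58.1 and fewer libraries served as alternatives, and fits were first tested on simulated data.

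The members and gene lists were chosen with earlier results of these data known. Besides the members, the text names the 3 highest and 3 lowest called genes of a list, the 3 protein-coding genes most like a member, and some of the nearest tested genes. Of those neighbors, 1 is not reported here. Other names were chosen after their values were seen. Likeness and variation without tumor 7 or normal kidney 9 were added after seeing the data. No 2 libraries of a group agreed within sampling noise. Counting limits cover counting error only.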

Additional observations from a re-analysis of the deposited data

Results flagged for a closer look

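Among the log2 CPM of the 8 genes, their summed share of counts and the 2 ratios, 22 sets of 10 libraries were searched for a library whose gap to the next exceeded Dixon's 95% critical value, which chance gives in about 1 set in 20. There were 4 such cases. Malat1 was lowest in tumor 7, at 8.58 log2 CPM, with the next tumor at 9.45. Malat1 was also far lower in normal kidney 9 than elsewhere, at 5.72 log2 CPM, with the next at 8.69. Snhg11 was lowest in the same kidney, at 3.18 log2 CPM, with the next at 4.85. The 8 genes took up 0.0217% of the counts of normal kidney 9, against at least 0.0852% in the other normal kidneys. That library also had the steepest fall of counts with gene length, and the part of this in its Malat1 and Snhg11 levels was not tested.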

How the results depend on the processing

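Neat1, Gas5, Snhg1, Snhg11 and Snhg12 kept their direction and their side of the threshold under all 30 alternatives. Meg3 lost its call with library totals (1.75, adjusted p = 0.0584), upper quartile factors (1.73), no filter (1.82), limma-voom with quantile normalization (1.62), the replicate block (0.61, adjusted p = 0.548), the block with the length slope (2.12, adjusted p = 0.0532) and without tumor 7 and normal kidney 9 together (0.48). With a library left out it ranged from 0.65 to 1.94. Malat1 was called only with the length slope (0.78) and with that slope and the block (0.79). Pairing by number was not established: same-numbered deviations correlated at -0.14 to 0.38, over 0.1 in 9 of 10 pairs, and 8 tumors correlated best with their own number. The block changed no other call among the 8 genes, and Neat1 stood at -1.29 with it (adjusted p = 0.00067). The share of counts changed sign among uncalled values from -0.0101 to 0.00431 with a library left out, and the ratio of Gas5 to Snhg1 from -0.0114 to 0.125. Without length, Snhg11 exceeded Gas5 in tumors (-0.39), Neat1 exceeded Snhg11 (-1.15), and the order of H19 over Meg3 turned in tumors (-1.51, against 1.37) and normal kidneys (-1.79, against 1.09). The gap of Neat1 to Snhg12 in tumors (3.65), Neat1 to Gas5 (2.65) and Snhg11 to Snhg12 (2.08) in normal kidneys then passed, and Snhg12 to Snhg1 in tumors (0.076), Malat1 to Neat1 (1.14) and Gas5 to Snhg11 (0.022) in normal kidneys did not. Without tumor 7 and normal kidney 9, Snhg11 to Neat1 in tumors was -0.041 and Snhg11 to Snhg12 in normal kidneys 0.58, now passing. With library totals, r of Neat1 and Malat1 in normal kidneys was 0.155, and of Gas5 and Snhg1 in tumors 0.758 (adjusted permutation p = 0.049). With a library left out, r of Neat1 and Malat1 ranged from -0.599 to 0.418 in tumors and from -0.842 to 0.31 in normal kidneys, Snhg1 and Snhg12 from 0.124 to 0.821 in tumors (0.821 without tumor 7) and from 0.548 to 0.893 in normal kidneys, Gas5 and Snhg12 from 0.451 to 0.844 in normal kidneys (the highest without kidney 7 in both). Of the genes of the related lists, 12 were higher with upper quartile factors, 69 were lower with the block and length slope and 71 without both libraries, against 19 higher and 45 lower. Calls over all genes moved as well. They were 7292 of 15354 in the main fit (49.79% higher) and 7650 with upper quartile factors (39.22% higher). With the block and length slope 9833 were called (49.81% higher), and without both libraries 8668 of 15353 (46.86% higher). Causes of these changes were not tested. Depth limits H19 and Meg3 most.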

Other observations

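Of 43 other well-known long noncoding RNAs 36 were matched and 19 tested, with 1 higher and 8 lower in tumors (median log2 fold change -0.37). The share called was close to the 47.5% of all genes tested, of which 23.6% were called higher and 23.8% lower. Pvt1, the neighbor of Myc, rose by 1.99 ± 0.15 log2 units (adjusted p = 1.29e-09) from 1.25 ± 0.27 to 5.00 ± 0.78 CPM (SD, n = 10), with every tumor above every normal kidney. Pantr1 fell from 9.62 ± 11.6 to 0.14 ± 0.29 CPM, with every tumor below every normal kidney. Its level in normal kidneys ranged from 2.01 to 41.7 CPM, with normal kidney 9 the highest. D630029K05Rik (-3.22) and Gm26917 (-1.91) also fell.

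Imprinted genes outside the H19 and Meg3 regions moved in both directions, 7 higher and 8 lower of 23 tested (median -0.09), beside 23.6% higher and 23.8% lower among all genes tested. Igf2r, which clears IGF2 from the cell surface, rose by 2.53 ± 0.31 log2 units to 794 ± 336 CPM, Peg3 by 1.95 and Gatm, a creatine synthesis enzyme, by 1.95. Ppp1r9a (-4.39), Plagl1 (-3.63) and the CDK inhibitor Cdkn1c (-3.27) fell. A list of 14 genes was made for the glucocorticoid receptor, which Gas5 can bind. Besides targets it held the receptor gene, Nr3c1, and the steroid enzymes Hsd11b1 and Hsd11b2. Cdkn1a (1.94) rose, and Hsd11b2 (-5.90), Hsd11b1 (-1.93) and Errfi1 (-0.92) fell. The median was -0.29 over the list and 4 of 14 were called, below the share of all genes. Hsd11b2 is also a gene of the distal nephron, whose markers all fell in tumors.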
